A study of Mus musculus with 11 samples.

Results

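The 10 genes described here encode the main lysosomal proteases of brain macrophages, 2 inhibitors of those proteases and the 2 major proteins of the lysosomal membrane. They are the cathepsin genes Ctsb, Ctsd, Ctss, Ctsl, Ctsz and Ctsc, the cystatin genes Cst3 and Cstb, and Lamp1 and Lamp2. They were chosen by name, as 10 of the 32285 genes listed in the count matrices, and all 10 were counted in every library. Their values were read in microglia and border-associated macrophages first and then in the other cell types.

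The measurements were single-cell RNA sequencing counts (10x Genomics 3′ v3 chemistry) of cells dissociated from the right brain of 11 mice, 1 library per mouse. The study asked how loss of Lrg1, a secreted glycoprotein that is induced in endothelial cells after ischaemia, alters brain cells after middle cerebral artery occlusion and reperfusion (MCAO/R), a mouse model of ischaemic stroke. Wild-type (WT) mice and mice with a conventional, whole-body knockout of Lrg1 (Lrg1-/-) received sham surgery or MCAO/R. This gave the sham + WT group (replicates 1, 2 and 3), the sham + Lrg1-/- group (replicates 1, 2 and 5), the MCAO/R + WT group, which has replicates 1 and 2 only, and the MCAO/R + Lrg1-/- group (replicates 1, 2 and 5), and library values are listed in that order of replicates throughout. The methods describe the WT mice as young adult male C57BL/6 mice from a university supplier and the knockouts as a C57BL/6N allele from a company, its strain elsewhere given as C57BL/6 J, that was backcrossed to C57BL/6N. An older age is stated for the knockouts, in the sentence on their backcross. Genotype, source, substrain and age therefore cannot be told apart. The labels give no time of occlusion or reperfusion for these libraries.

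Lysosomes break down material taken up by phagocytosis, endocytosis and autophagy. Cathepsins are made as inactive precursors and become active in the acidic lumen, cystatins bind and block cysteine cathepsins, and the heavily glycosylated LAMP proteins line the inner face of the membrane. In the brain this system is most abundant in microglia and other macrophages, which clear myelin, dead cells and debris after injury.

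Many lysosomal genes carry the letters CACGTG, the core of the site read by the transcription factors TFEB, TFE3 and MITF, close to their start. The word is its own reverse complement, so that one search covers both strands. RefSeq sequence of the 250 bases before the transcription start (build GRCm38.p6) was held for 8 of the 10 genes, all except Ctsb and Cstb. CACGTG was found in 3 of these 8 windows and in 6.02% of all 32851 promoter windows of the same length. It was found in 18 of the 100 windows held for further lysosomal genes, those of the lists read below. It was found at least 2 times in 2 of the 8 windows and in 0.43% of all windows. The windows of the 2 membrane genes are shown because the counts of these 2 genes changed differently in microglia. The window of Ctsz is shown as a cathepsin promoter without the word. Whether the word bears on the counts was not tested. The Lamp1 window lies on the plus strand at chr8:13158911-13159160, the Lamp2 window on the minus strand at chrX:38456461-38456710 and the Ctsz window on the minus strand at chr2:174439040-174439289. All are printed 5′ to 3′ with each CACGTG in capitals.
Lamp1: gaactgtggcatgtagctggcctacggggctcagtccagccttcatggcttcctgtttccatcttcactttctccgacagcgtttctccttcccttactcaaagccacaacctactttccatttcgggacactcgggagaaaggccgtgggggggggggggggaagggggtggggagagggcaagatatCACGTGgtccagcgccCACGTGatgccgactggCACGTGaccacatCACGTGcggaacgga
Lamp2: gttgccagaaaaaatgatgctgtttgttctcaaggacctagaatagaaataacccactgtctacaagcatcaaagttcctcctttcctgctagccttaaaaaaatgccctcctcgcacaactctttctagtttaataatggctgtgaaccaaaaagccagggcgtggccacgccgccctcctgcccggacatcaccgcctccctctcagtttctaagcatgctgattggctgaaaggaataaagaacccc
Ctsz: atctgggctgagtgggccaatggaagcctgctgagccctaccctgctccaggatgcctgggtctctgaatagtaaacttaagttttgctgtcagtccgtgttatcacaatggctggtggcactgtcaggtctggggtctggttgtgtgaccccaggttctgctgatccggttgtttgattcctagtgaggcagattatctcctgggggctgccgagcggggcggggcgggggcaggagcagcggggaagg
The Lamp1 window held 4 copies, which began 61, 45, 28 and 15 bases before the start, whereas the Lamp2 and Ctsz windows held none. At least 3 copies were found in 0.061% of all windows.

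The 250 bases before the RefSeq start of Ctsd held 2 copies, which began 245 and 98 bases before the start. Of this window, 211 bases lie inside the longer Ctsd gene of the GENCODE M21 annotation, so only the 30 bases around each copy are shown, from the minus strand at chr7:142388048-142388077 and chr7:142387908-142387937.
Ctsd distal: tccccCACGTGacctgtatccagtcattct
Ctsd proximal: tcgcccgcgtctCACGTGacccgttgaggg
The Ctsl window held 1 copy, 236 bases before the RefSeq start, but lies wholly inside the GENCODE gene and is not shown. The windows of Ctsc, Ctss and Cst3 held none, and 180 bases of the Cst3 window lie inside the GENCODE gene. A match describes the letters only, and binding was not measured.

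All 10 genes are protein coding in GENCODE M21 (GRCm38). Ctsd lies at chr7:142375911-142388038 (minus strand), Ctsb at chr14:63122462-63145923 (plus), Ctsl at chr13:64359337-64370890 (minus), Ctsz at chr2:174427493-174439039 (minus), Ctsc at chr7:88278085-88310888 (plus) and Ctss at chr3:95526786-95556403 (plus). Cst3 lies at chr2:148871722-148875692 (minus), Cstb at chr10:78425669-78427622 (plus), Lamp1 at chr8:13159161-13175338 (plus) and Lamp2 at chrX:38401357-38456454 (minus).

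The libraries held 37159497 to 171813031 UMIs (unique molecular identifiers, each 1 captured mRNA molecule), and 132437 cells passed the filters. No Lrg1 UMI was counted in the endothelial cells of any Lrg1-/- library, whereas Lrg1 stood at 7.66 to 23.7 CPM (UMIs per 1000000 UMIs) in sham + WT endothelial cells and at 432 and 548 CPM in MCAO/R + WT endothelial cells. MCAO/R + Lrg1-/- replicates 1 and 2 held Xist, at 366 and 476 CPM, and almost no Y-linked UMIs. The other 9 libraries held Y-linked UMIs and at most 1.05 CPM of Xist, so the sex of the animals differed within that group. Results were also computed without the 2 libraries, which leaves 1 library, replicate 5, in that group, with its spread taken from the other groups. Any 2 libraries shared 5 to 146 cell barcodes, at most 1.15% of the smaller library. Of the cells, 27719 stayed unnamed (2.86% to 50.4% of a library, highest in MCAO/R + Lrg1-/- replicate 5) and entered no value. A cluster of 9173 cells that carried the haemoglobin markers was also left out. Its 40 to 259 cells in each WT library held few haemoglobin UMIs but 24393 to 28498 CPM of 5 microglial genes and 31857 to 63923 CPM of Cst3. Each Lrg1-/- library lost more cells with this cluster, 289 to 3041. The number was 2145 in MCAO/R + Lrg1-/- replicate 1, the library with the fewest microglia. These cells held 155213 to 553358 CPM of haemoglobin genes, 8170 to 12841 CPM of the microglial genes and 7194 to 34768 CPM of Cst3. The number of deposited barcodes was round in 4 Lrg1-/- libraries (15500, 9000, 5650 and 8500), and it was not in the others.

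Cell types were named from marker genes, so that each name stands for cells with that pattern (microglia-like and so on). The microglia comprised 30839 cells, 262 to 4718 per library, and the border-associated macrophages 1694 cells, 34 to 259 per library. All 8 markers of the microglial list, such as P2ry12, Tmem119 and Siglech, were counted in microglia. Their summed level ran from 6759 to 7157 CPM in sham + WT, from 4714 to 5530 CPM in sham + Lrg1-/-, from 1567 to 2256 CPM in MCAO/R + WT and from 3213 to 3661 CPM in MCAO/R + Lrg1-/- libraries. Microglia came from 2 clusters. Cluster 0, led by inflammatory genes such as Ccl3, Tnf, Nlrp3 and C5ar1, held 81.7% to 98.4% of microglia after MCAO/R and 5.98% to 30.6% after sham surgery, and cluster 2, led by P2ry12, Siglech and Gpr34, held the rest. A pooled comparison between surgeries therefore sets mostly cluster 0 against mostly cluster 2, and values within each cluster are given where they bear on a call. The clusters were compared after their composition was seen.

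For each cell type the UMIs of a library were summed, and levels are CPM, scaled to the library's TMM-adjusted total for that type. Because transcripts of different lengths and 3′ ends are captured unequally, levels are compared between libraries within a gene and not between genes. The sums were compared with edgeR's quasi-likelihood test over all genes that passed its filter, with all groups that had libraries of at least 20 cells in 1 fit. These were 4 groups in microglia and border-associated macrophages, 3 in fibroblasts and neutrophils, which lacked sham + Lrg1-/- libraries, and 2 in monocytes. A gene was called where the Benjamini-Hochberg adjusted p was below 0.05 and the natural-log fold change was over 0.25 in size. Fold changes are given as log2 values with a standard error (SE). The SE was derived from the test, as the size of the log2 fold change divided by the square root of its F statistic. The comparisons share groups with one another, so that their results are not independent.

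In microglia, the cathepsins Ctsb, Ctsl, Ctsz and Ctsc and the cystatin Cstb rose after MCAO/R in both genotypes, and the secreted cystatin Cst3 fell. In WT mice the rises of Ctsb and Ctsz were not called within either cluster, and that of Cstb was not called within cluster 0. In Lrg1-/- mice the rise of Ctsz and the fall of Cst3 were not called within cluster 2. After MCAO/R, Lrg1-/- microglia held 1.98 times the Ctsb of WT microglia, 0.717 times the Ctss and 0.544 times the Lamp2. The contrast of the 2 MCAO/R groups called 3 of the 10 genes, 1 higher and 2 lower, against 20.6% of the 18325 genes tested in microglia. The median log2 fold change was -0.13 over the 10 genes and 0.09 over all genes tested. After sham surgery, Lrg1-/- microglia held less Cst3 and less Lamp1 than WT microglia, and these 2 calls compare with 22.3% of all genes. MCAO/R against sham called 6 of the 10 genes in WT mice (5 higher, 1 lower) where 21.4% of all genes were called, and 9 of the 10 in Lrg1-/- mice (7 higher, 2 lower) where 36.0% were called. Groups without overlap were found for 5 members between the MCAO/R groups, 9 between the sham groups, 7 between surgeries in WT and 9 between surgeries in Lrg1-/- mice, against 34.2%, 36.1%, 41.7% and 32.9% of all genes with counts. The plot of microglial levels by library shows these values.

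**Figure D1:**
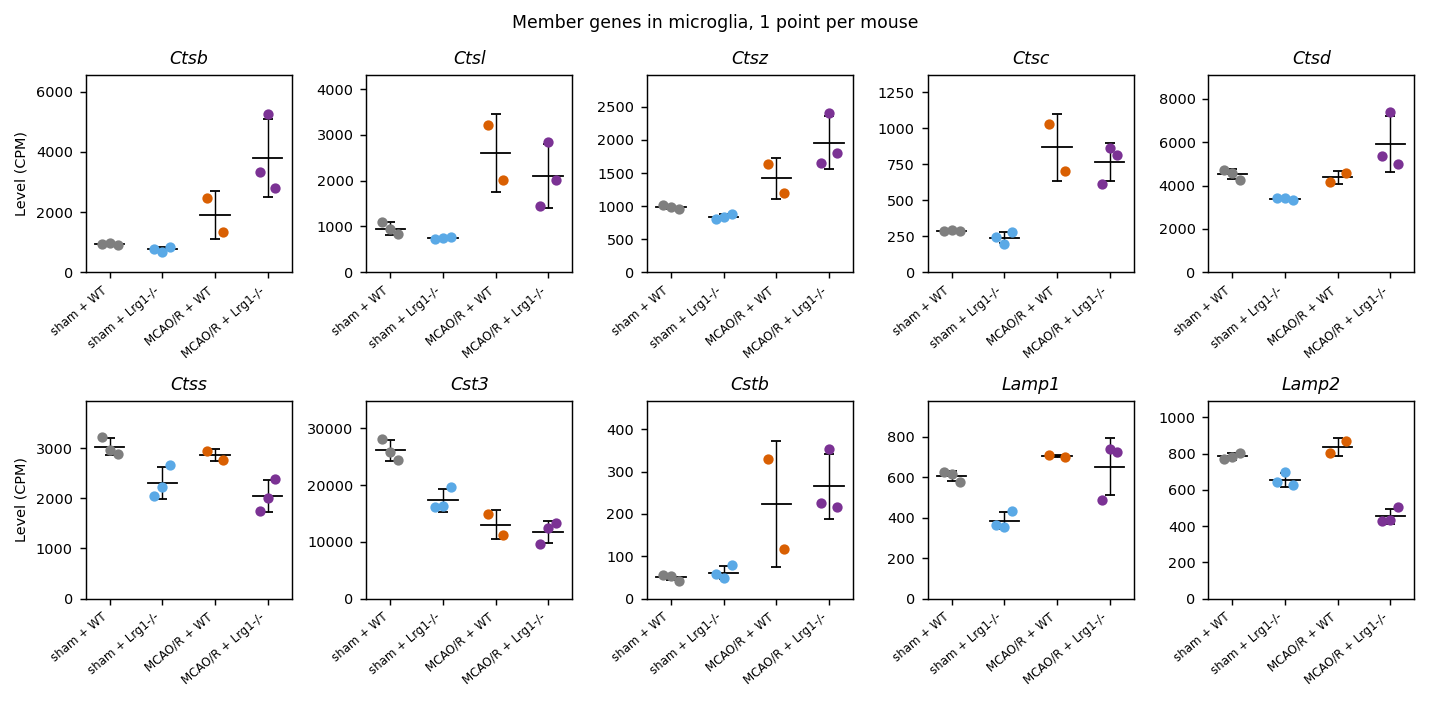
Level of each of the 10 genes in microglia (CPM on TMM-adjusted totals, linear axes that start at 0), 1 point per library, a line at the group mean and an error bar of 1 SD, for sham + WT (n = 3), sham + Lrg1-/- (n = 3), MCAO/R + WT (n = 2) and MCAO/R + Lrg1-/- (n = 3) mice. Ctsb ran from 674 to 979 CPM over the 6 sham libraries and from 1351 to 5243 CPM over the 5 MCAO/R libraries, and Lamp2 was lowest in the MCAO/R + Lrg1-/- group, at 430.1 to 504 CPM.

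Cathepsin B (Ctsb) is a cysteine protease that is also released into the cytosol and outside the cell in injured tissue. Its microglial level was 944, 979 and 889 CPM in sham + WT, 763, 674 and 852 CPM in sham + Lrg1-/-, 2479.6 and 1351 CPM in MCAO/R + WT and 3319, 5243 and 2808 CPM in MCAO/R + Lrg1-/- libraries. Every MCAO/R library was above every sham library, and the 3 MCAO/R + Lrg1-/- libraries were above both MCAO/R + WT libraries, although replicate 5 was only a little above WT replicate 1. Ctsb rose after MCAO/R by 1.03 on the log2 scale in WT mice (SE 0.26, edgeR's quasi-likelihood test, adjusted p = 0.0123) and by 2.31 in Lrg1-/- mice (SE 0.25, adjusted p = 5.05e-05). It was higher in MCAO/R + Lrg1-/- than in MCAO/R + WT microglia by 0.98 (SE 0.27, adjusted p = 0.0215). This call was lost without MCAO/R + Lrg1-/- replicate 2 (log2 0.68), without MCAO/R + WT replicate 2 (0.56) and without the 2 libraries that held Xist (0.55). The WT rise was lost without MCAO/R + WT replicate 1 (0.53), and it was 0.34 within cluster 0 (adjusted p = 0.419) and 0.26 within cluster 2 (adjusted p = 0.138). In Lrg1-/- mice it was called in both (1.73 and 0.64).

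Over all microglia, cathepsin L (Ctsl) and cathepsin C (Ctsc, which activates serine proteases of immune cells) were called by surgery in both genotypes and not between the genotypes. Ctsl stood at 1098, 937 and 826 CPM in sham + WT, 729.7, 739.9 and 769 CPM in sham + Lrg1-/-, 3212 and 2008 CPM in MCAO/R + WT and 1439.7, 2836 and 2025 CPM in MCAO/R + Lrg1-/- microglia. The 2 MCAO/R groups overlapped, and both lay above the sham libraries. Ctsl rose by 1.45 in WT (SE 0.25, edgeR's quasi-likelihood test, adjusted p = 0.00104) and by 1.49 in Lrg1-/- mice (SE 0.23, adjusted p = 3.00e-04). Ctsc stood at 289, 292 and 287 CPM in sham + WT, 243, 199 and 279.6 CPM in sham + Lrg1-/-, 1030.4 and 701 CPM in MCAO/R + WT and 614, 864 and 816 CPM in MCAO/R + Lrg1-/- microglia. Each of the 5 MCAO/R libraries was above every sham library, with a rise of 1.58 in WT (SE 0.19, adjusted p = 8.12e-05) and 1.67 in Lrg1-/- mice (SE 0.18, adjusted p = 4.94e-05). Between the MCAO/R groups the log2 differences were -0.31 for Ctsl (adjusted p = 0.393) and -0.18 for Ctsc (adjusted p = 0.536). Within cluster 2 Ctsc was called lower in MCAO/R + Lrg1-/-, at 304 to 402 CPM against 472 to 504 CPM in MCAO/R + WT.

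Cathepsin Z (Ctsz), a carboxypeptidase that also binds integrins, stood at 1011, 980.0 and 962 CPM in sham + WT, 809.6, 834 and 879.6 CPM in sham + Lrg1-/-, 1641 and 1201 CPM in MCAO/R + WT and 1658, 2411 and 1807 CPM in MCAO/R + Lrg1-/- microglia. The MCAO/R libraries were all above the sham libraries. Ctsz rose by 0.53 in WT (SE 0.17, edgeR's quasi-likelihood test, adjusted p = 0.0412), a call that 8 of 21 alternatives lost (0.29 without MCAO/R + WT replicate 1; 0.06 within cluster 0 and 0.08 within cluster 2), and by 1.22 in Lrg1-/- mice (SE 0.16, adjusted p = 0.000117). Within clusters the Lrg1-/- change was smaller, 0.75 in cluster 0 (adjusted p = 0.00429) and 0.34 in cluster 2 (adjusted p = 0.0482, under the fold threshold). The 3 MCAO/R + Lrg1-/- libraries were above both MCAO/R + WT libraries, but the difference of 0.46 missed the threshold (SE 0.18, adjusted p = 0.0760).

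Cathepsin D (Ctsd), the aspartic protease of the lysosome, stood at 4739, 4604 and 4274 CPM in sham + WT, 3441, 3414 and 3351 CPM in sham + Lrg1-/-, 4178 and 4598 CPM in MCAO/R + WT and 5367, 7404 and 4976 CPM in MCAO/R + Lrg1-/- microglia. In WT mice the 2 MCAO/R libraries and the 3 sham libraries overlapped (log2 -0.05, edgeR's quasi-likelihood test, adjusted p = 0.875). In Lrg1-/- mice every MCAO/R library was above every sham library, and Ctsd rose by 0.80 (SE 0.15, adjusted p = 0.00117). The sham + Lrg1-/- libraries were the lowest of all, 0.42 below sham + WT, which missed the threshold (adjusted p = 0.0630). The MCAO/R + Lrg1-/- libraries were the highest of all, 0.43 above MCAO/R + WT (adjusted p = 0.0874). This held for all microglia together. Within cluster 0 MCAO/R + Lrg1-/- ran from 4750 to 6707 CPM and overlapped sham + WT (5203 to 5955 CPM). Within cluster 2 it was lower than MCAO/R + WT, at 3540 to 4025 against 4772 to 4789 CPM. The WT mean after MCAO/R was 4208 against 5658 CPM after sham surgery in cluster 0, and 4780.5 against 4517 CPM in cluster 2. Neither the genotype difference after MCAO/R nor the WT change was called within a cluster.

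Cathepsin S (Ctss), which cleaves the invariant chain of MHC class II and stays active at neutral pH, stood at 3212, 2972 and 2884 CPM in sham + WT, 2039, 2221 and 2659.9 CPM in sham + Lrg1-/-, 2948 and 2769.9 CPM in MCAO/R + WT and 1756, 2010.4 and 2378 CPM in MCAO/R + Lrg1-/- microglia. Both Lrg1-/- groups lay below the WT group of the same surgery, with no overlap. The difference was -0.48 after MCAO/R (SE 0.16, edgeR's quasi-likelihood test, adjusted p = 0.0468) and -0.39 after sham surgery (SE 0.14, adjusted p = 0.0668). The first is a narrow call, lost in 11 of 21 alternatives, among them the removal of any 1 library of the sham + WT or MCAO/R + WT group, of MCAO/R + Lrg1-/- replicate 1 or 2, or of sham + Lrg1-/- replicate 1. Over all single removals it ran from -0.60 to -0.39, and without the 2 libraries that held Xist it was -0.27. Over all microglia, surgery itself moved Ctss by -0.08 in WT (adjusted p = 0.775) and -0.17 in Lrg1-/- mice (adjusted p = 0.381). Within each cluster, WT Ctss was lower after MCAO/R than after sham surgery without overlap, though not called. The mean was 2808 against 3693 CPM in cluster 0 and 2346 against 3009 CPM in cluster 2.

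The 2 cystatins moved in opposite directions after MCAO/R. Cystatin C (Cst3), a secreted inhibitor and one of the most abundant microglial transcripts, stood at 28138, 25882 and 24403 CPM in sham + WT, 16134, 16273 and 19709.9 CPM in sham + Lrg1-/-, 14833 and 11245 CPM in MCAO/R + WT and 9586, 12404 and 13275 CPM in MCAO/R + Lrg1-/- microglia. The sham + WT libraries were highest, the sham + Lrg1-/- libraries came next without overlap, and the MCAO/R libraries of both genotypes shared the lowest range. After MCAO/R, Cst3 fell to 0.499 times its sham level in WT (SE of the log2 change 0.19, edgeR's quasi-likelihood test, adjusted p = 0.00255) and to 0.677 times in Lrg1-/- mice (SE 0.17, adjusted p = 0.0186), and it was lower by 0.59 in sham + Lrg1-/- than in sham + WT microglia (SE 0.17, adjusted p = 0.0238). The fall in Lrg1-/- mice was lost without sham + Lrg1-/- replicate 5 (log2 -0.47). The sham difference was lost without sham + Lrg1-/- replicate 1 (-0.53) or 2 (-0.56) and without sham + WT replicate 1 (-0.53) or 2 (-0.61).

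Cystatin B (Cstb), the cytosolic inhibitor of the family, stood at 54.7, 52.2 and 42.6 CPM in sham + WT, 57.9, 48.3 and 78.2 CPM in sham + Lrg1-/-, 329 and 118 CPM in MCAO/R + WT and 225, 354 and 217 CPM in MCAO/R + Lrg1-/- microglia. All MCAO/R libraries were above all sham libraries, and the 2 MCAO/R + WT libraries lay far apart, with 2 of the 3 Lrg1-/- libraries between them. Cstb rose 4.48-fold in WT (log2 2.16, SE 0.34, edgeR's quasi-likelihood test, adjusted p = 0.000584) and 4.37-fold in Lrg1-/- mice (log2 2.13, SE 0.33, adjusted p = 0.000304). Within clusters the WT change was smaller, 0.95 in cluster 0 (adjusted p = 0.0757) and 0.57 in cluster 2 (adjusted p = 0.00692), and that in Lrg1-/- mice was 1.54 and 0.65, called in both. The genotypes differed by 0.25 after MCAO/R (adjusted p = 0.636), and a difference of 1.17 was called when MCAO/R + WT replicate 1 was left out.

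The 2 membrane genes separated from each other. Lamp1 stood at 625, 617 and 577 CPM in sham + WT, 365, 355 and 432 CPM in sham + Lrg1-/-, 709 and 700.4 CPM in MCAO/R + WT and 488, 738 and 724 CPM in MCAO/R + Lrg1-/- microglia. The sham + Lrg1-/- libraries were the lowest and did not overlap any other group. Lamp1 was lower there than in sham + WT by 0.66 (SE 0.15, edgeR's quasi-likelihood test, adjusted p = 0.00800) and rose by 0.76 after MCAO/R in Lrg1-/- mice (SE 0.15, adjusted p = 0.00168), whereas in WT mice the change was 0.22 (adjusted p = 0.407). Over all microglia, the genotypes overlapped after MCAO/R (log2 -0.11, adjusted p = 0.662). Neither Lamp1 call was lost in any of the 21 alternatives fitted on all microglia. Within clusters the rise was 0.21 in cluster 0 (adjusted p = 0.303) and 0.43 in cluster 2 (adjusted p = 0.0255). Within cluster 2 the MCAO/R groups did not overlap, at 431 to 556 CPM in Lrg1-/- against 591 to 629 CPM in WT libraries. Within cluster 0 WT Lamp1 was lower after MCAO/R (677 to 700 CPM) than after sham surgery (718 to 796 CPM). Neither of these differences was called.

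Lamp2, whose splice forms include the receptor of chaperone-mediated autophagy, stood at 768, 782 and 804 CPM in sham + WT, 642, 701 and 625 CPM in sham + Lrg1-/-, 802 and 872 CPM in MCAO/R + WT and 430.1, 432 and 504 CPM in MCAO/R + Lrg1-/- microglia. The 3 MCAO/R + Lrg1-/- libraries were the lowest of the 11. Lamp2 was 0.88 lower there than in MCAO/R + WT microglia (SE 0.12, edgeR's quasi-likelihood test, adjusted p = 0.000408), and it fell by 0.53 after MCAO/R in Lrg1-/- mice (SE 0.11, adjusted p = 0.00240) against a change of 0.09 in WT mice (adjusted p = 0.652). Lamp2 is X-linked. The genotype difference ran from -0.95 to -0.74 over all 21 alternatives, the fit without the 2 libraries that held Xist included. That fit leaves 1 library, replicate 5, in the MCAO/R + Lrg1-/- group. The fall in Lrg1-/- mice was smaller in that fit (log2 -0.39) and not called. It was called within cluster 0 (-0.44, adjusted p = 0.0227) and was 0.03 within cluster 2 (adjusted p = 0.895), where Lamp2 rose in WT mice (0.41, adjusted p = 0.0134).

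The interaction of genotype and surgery asks whether the response to MCAO/R differed between genotypes. It called 3 of the 10 genes in microglia, where 8.53% of all genes were called by edgeR's quasi-likelihood test. The term was positive for Ctsb and Ctsd, at 1.28 (SE 0.36, adjusted p = 0.0439) and 0.85 (SE 0.23, adjusted p = 0.0386) on the log2 scale, and negative for Lamp2, at -0.62 (SE 0.17, adjusted p = 0.0380). Ctsb rose more in Lrg1-/- than in WT mice, whereas Ctsd rose in Lrg1-/- mice and did not rise in WT mice. The number of calls changed with single libraries, and it is given here without the share of all genes called in the same fit. It was 0 by edgeR's quasi-likelihood test when any 1 of 7 libraries was left out, namely sham + WT replicate 1, 2 or 3, sham + Lrg1-/- replicate 1 or 2, MCAO/R + WT replicate 2 or MCAO/R + Lrg1-/- replicate 2, with an adjusted p for Ctsb between 0.0745 and 0.136. It was 1 without sham + Lrg1-/- replicate 5, 5 without MCAO/R + Lrg1-/- replicate 1 and 0 without the 2 libraries that held Xist. Within cluster 0 the terms were 1.39 for Ctsb (adjusted p = 0.0588), 0.88 for Ctsd (adjusted p = 0.0546) and -0.75 for Lamp2 (adjusted p = 0.0554). There edgeR's quasi-likelihood test called 0 members, where 1.28% of genes were called. An unadjusted p under 0.05 was reached by 4 members and by 2470 of all 12833 genes. Within cluster 2 the terms were 0.39, 0.02 and -0.375, none of them called. The 1 member called there was Cst3 (0.97, adjusted p = 0.00437), where 12.5% of genes were called. For Ctsz the pooled term was 0.69 (adjusted p = 0.0813) and for Lamp1 0.55 (adjusted p = 0.149). The plot of fold changes sets the response to surgery in each genotype beside the difference between the MCAO/R groups.

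**Figure D2:**
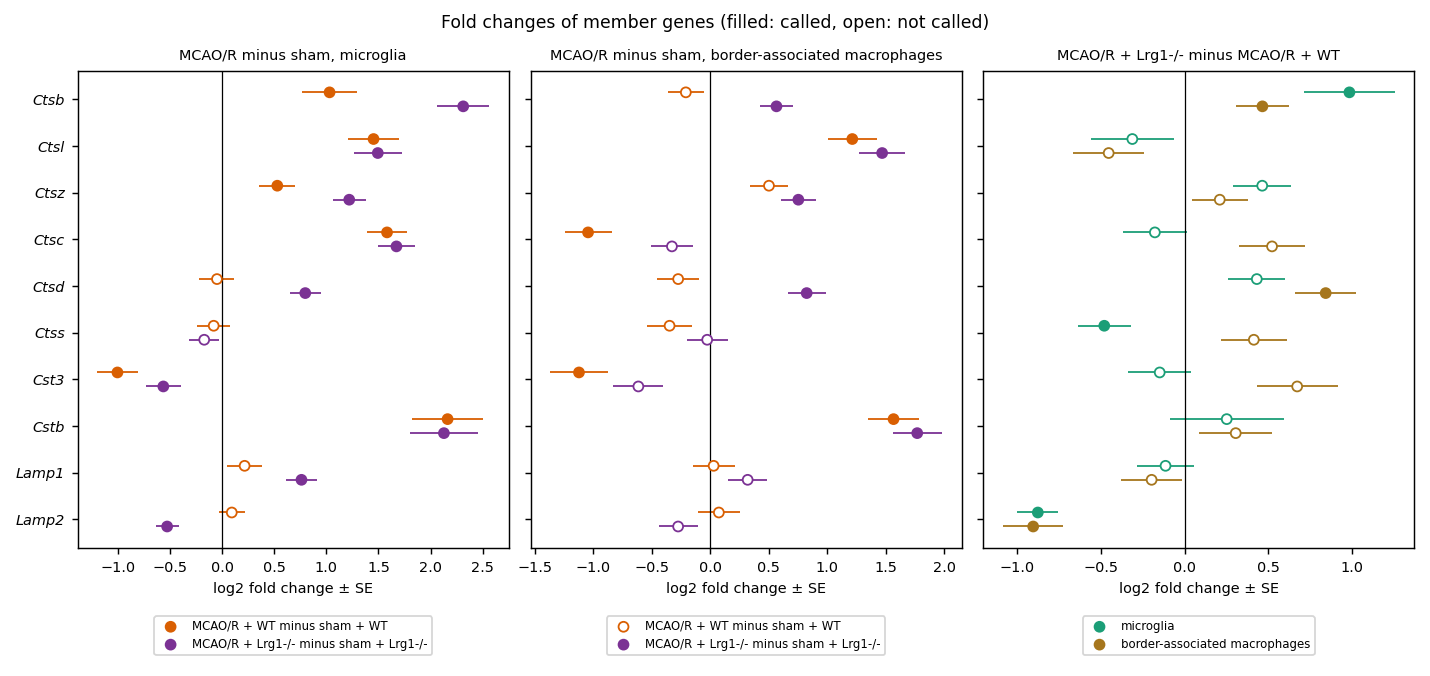
Log2 fold change (horizontal axis, with bars of 1 SE) of the 10 genes between MCAO/R and sham in each genotype, in microglia (left) and border-associated macrophages (middle), and between the MCAO/R groups in both cell types (right), with filled points for called genes and open points for the others. In microglia Lamp2 lies at -0.88 and Ctsb at 0.98 between the MCAO/R groups, while Cstb lies above 2 in both comparisons of MCAO/R with sham.

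Within cluster 0 the genotype comparison after MCAO/R called the same 3 genes as in all microglia, namely Ctsb (log2 0.96, edgeR's quasi-likelihood test, adjusted p = 0.0205), Ctss (-0.55, adjusted p = 0.0251) and Lamp2 (-0.92, adjusted p = 0.000572), where 18.0% of genes were called. Within cluster 2, 18.2% of genes were called, and the called members were Lamp2 (-0.47, adjusted p = 0.00860) and Ctsc (-0.53, adjusted p = 0.0259), while Ctsb differed by 0.04 (adjusted p = 0.870). Between the sham groups, where 38.5% of genes were called in cluster 2, Lamp1 (-0.71), Cst3 (-0.65), Ctss (-0.44) and Ctsd (-0.38) were called lower in Lrg1-/- cells. In cluster 0, where 4.92% were called, edgeR's quasi-likelihood test called 0 members. An unadjusted p under 0.05 was reached by 2584 of all 12833 genes and by 2 members. Those were Lamp1 (-0.52, adjusted p = 0.0546) and Ctsd (-0.44, adjusted p = 0.0909), and for both the sham groups did not overlap there.

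Between surgeries in WT mice, cluster 0 called 3 members, where 11.6% of genes were called, and cluster 2 called 5, where 24.6% were called. Ctsc (1.28 and 0.76) and Ctsl (1.17 and 0.47) rose and Cst3 fell (-1.23 and -1.37) in both clusters, and cluster 2 added Cstb and Lamp2. In Lrg1-/- mice cluster 0 called 9 members, where 21.4% of genes were called, and cluster 2 called 5, where 11.0% were called. Ctsb, Cstb, Ctsc (1.12 and 0.56) and Ctsl (1.06 and 0.58) rose in both. Ctsd rose in cluster 0 (0.46) and differed by 0.10 in cluster 2 (adjusted p = 0.610), Cst3 fell in cluster 0 (-1.13) and differed by -0.40 in cluster 2 (adjusted p = 0.0542), and Ctss fell in cluster 0 (-0.75).

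Other RNA moved with the genotype in the same microglial libraries. The summed level of 9 genes that respond to tissue dissociation (such as Fos, Jun and Hspa1a) ran from 33837 to 37119 CPM in sham + WT and from 30354 to 32233 CPM in MCAO/R + WT libraries, against 15497 to 17954 CPM in sham + Lrg1-/- and 9805 to 14341 CPM in MCAO/R + Lrg1-/- libraries, and 7 of the 9 were called lower in Lrg1-/- mice after either surgery. The summed level of 4 haemoglobin genes, which microglia do not make, was 15.5 to 22.2 CPM in WT and 6611 to 26563 CPM in Lrg1-/- libraries. That of 4 choroid plexus genes was 124 to 587 CPM in WT and 2439 to 3812 CPM in Lrg1-/- libraries. Marker sums of B, T, NK and ciliated ependymal cells were also higher in MCAO/R + Lrg1-/- than in MCAO/R + WT microglia without overlap. That of NK cells, for example, was 1.58 to 5.11 against 0.0983 to 0.121 CPM. The pericyte sum was lower, at 7.33 to 19.7 against 27.0 to 40.05 CPM. Depth per cell differed as well. Over cells passing the filters, median UMIs per cell ran from 3190 to 7911 in Lrg1-/- and from 6064 to 11504 in WT libraries. These ranges overlapped. In microglia the median ran from 4227 to 15321.5 UMIs over all libraries. Fits on cells thinned to an equal number of UMIs are among the alternatives. The part of dissociation, free RNA and the source of the animals in the genotype differences above was not tested.

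The wider lysosomal system was read from 6 lists of 104 further genes, 98 of which were tested in microglia. After MCAO/R in WT mice 26 of them rose and 12 fell, and in Lrg1-/- mice 45 rose and 14 fell, by edgeR's quasi-likelihood test over all genes. Between the MCAO/R groups 10 were higher and 18 lower in Lrg1-/- microglia, and between the sham groups 5 were higher and 25 lower. The shares called among all 18325 genes were 21.4%, 36.0%, 20.6% and 22.3% for these 4 comparisons. The lists' median log2 fold changes were 0.22, 0.37, 0.03 and -0.24 in the same order, against 0.05, 0.05, 0.09 and -0.02 over all genes. The 28 calls between the MCAO/R groups were 9 without MCAO/R + WT replicate 2 and 12 without the 2 libraries that held Xist. The 30 calls between the sham groups were 11 without sham + Lrg1-/- replicate 1, 13 without sham + Lrg1-/- replicate 2, 13 without sham + WT replicate 1 and 19 without sham + WT replicate 3. The share of all genes called in these alternative fits is not given here.

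Among the lysosomal hydrolases, 7 of 40 were higher and 7 lower in MCAO/R + Lrg1-/- than in MCAO/R + WT microglia. The glycosidase and sulfatase genes Hexa (log2 0.64) and Arsb (0.66) were among the higher ones, and Manba (-0.74), Scpep1 (-0.76) and Gla (-0.69) among the lower ones. Arsb fell by 1.91 and Hexa by 1.18 after MCAO/R in WT mice. Hexa and Arsb were also called in the interaction (1.29 and 0.97), which called 7 hydrolases higher and 0 lower by edgeR's quasi-likelihood test, where 5.08% of all genes were called higher and 3.45% lower. Over the 6 lists the interaction called 14 genes, and 5 to 33 when 1 library was left out. Every library except replicate 5 of the sham + Lrg1-/- and MCAO/R + Lrg1-/- groups moved this count by over 1.5 times. The share of all genes called in the same fits is not given here. Of the 8 further protease genes, 1 was higher and 1 lower between the MCAO/R groups, both at very low levels. Ctsw, a cathepsin known from cytotoxic lymphocytes, was higher (log2 1.93, edgeR's quasi-likelihood test, adjusted p = 0.0224) at 0.828 ± 0.565 CPM (SD, n = 3) in MCAO/R + Lrg1-/- against 0.254 ± 0.0119 CPM (n = 2) in MCAO/R + WT microglia, and the groups overlapped. Ctse, which encodes an aspartic cathepsin, was lower (-1.16, adjusted p = 0.0400) at 1.96 ± 0.355 against 4.58 ± 2.39 CPM, and it rose by 3.24 after MCAO/R in WT mice from 0.480 ± 0.0205 CPM. Ctsa was 0.55 lower in sham + Lrg1-/- microglia and rose by 0.91 after MCAO/R there.

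Further membrane, pump and sorting genes were called as follows between the MCAO/R groups, where 10.3% of all genes were higher and 10.3% lower. Of 20 other membrane genes tested 4 were lower and 0 higher by edgeR's quasi-likelihood test. The mucin-like Cd164 (-1.08, adjusted p = 0.000231), Sidt2 (-1.02) and Lmbrd1 (-0.51) were among them. Of 18 genes of the proton pump that acidifies lysosomes 4 were lower, such as Atp6ap2 (-1.05, adjusted p = 0.000265) and Atp6v0d1 (-0.84), and Atp6v0a2 was higher (0.51). Of 10 sorting and transcription factor genes 2 were lower, the sorting receptor Sort1 (-1.32, adjusted p = 0.000252) and Lyst (-0.44), and 0 were higher. The tetraspanin Cd63 rose by 2.07 in WT and 2.70 in Lrg1-/- mice after MCAO/R, and the macrophage marker Cd68 by 0.63 and 1.47. Among the other cystatins Cst7, which encodes an inhibitor of cathepsins, rose by 1.63 in WT and 3.36 in Lrg1-/- mice. The interaction called 0 of the 2 other cystatins tested, where 8.53% of all genes were called. The one other cystatin called between the MCAO/R groups, Stfa2l1 (log2 5.07), belongs to a family of near-identical copies, and its count is uncertain.

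In border-associated macrophages, which line the meninges and vessels, MCAO/R + Lrg1-/- cells held 1.79 times the Ctsd, 1.38 times the Ctsb and 0.534 times the Lamp2 of MCAO/R + WT cells. These 3 calls of 10 compare with 20.8% of the 11175 genes tested, and the median log2 fold change of the members was 0.36 against 0.03 over all genes. Cstb and Ctsl rose after MCAO/R in both genotypes. MCAO/R against sham called 4 members in WT mice (2 higher, 2 lower), where 8.99% of genes were called, and 5 members in Lrg1-/- mice (all higher), where 9.34% were called. Groups without overlap were found for 6 members between the MCAO/R groups, 4 between the sham groups, 8 between surgeries in WT and 6 between surgeries in Lrg1-/- mice, against 29.5%, 19.7%, 28.4% and 15.2% of all genes with counts.

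**Figure D3:**
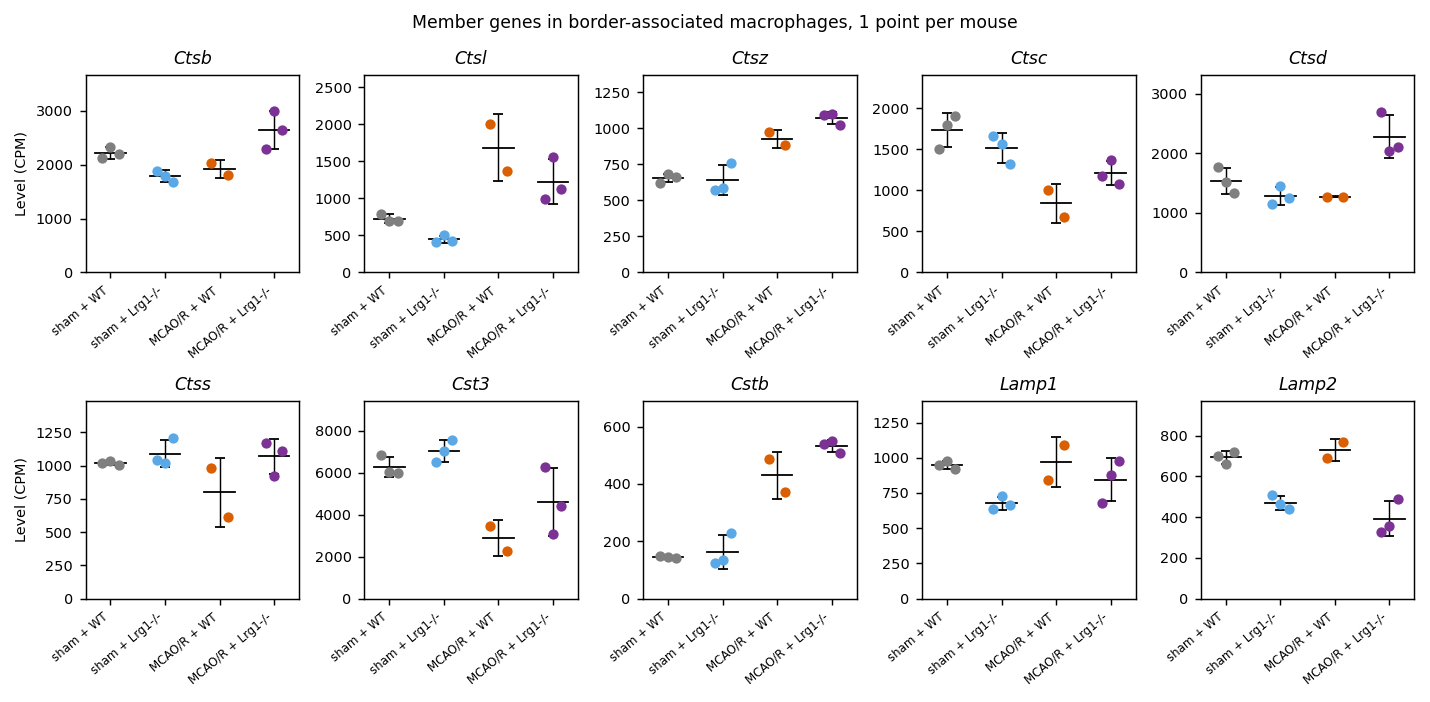
Level of each of the 10 genes in border-associated macrophages (CPM on TMM-adjusted totals, linear axes that start at 0), 1 point per library, a line at the group mean and an error bar of 1 SD, for the 4 groups. Ctsd is highest in the 3 MCAO/R + Lrg1-/- libraries (2044 to 2694 CPM, against 1266 and 1275 CPM in MCAO/R + WT), and Lamp2 lies at 329 to 489 CPM there against 692 and 769 CPM.

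Ctsd in border-associated macrophages was 1764, 1517 and 1330.1 CPM in sham + WT, 1156, 1448 and 1256 CPM in sham + Lrg1-/-, 1266 and 1275 CPM in MCAO/R + WT and 2694, 2044 and 2100.3 CPM in MCAO/R + Lrg1-/- libraries. The last group lay above all the others. Its difference from MCAO/R + WT was 0.84 (SE 0.18, edgeR's quasi-likelihood test, adjusted p = 0.00507) and was lost without MCAO/R + WT replicate 2 (0.80) and without the 2 libraries that held Xist (0.67). Ctsb was 2128, 2332 and 2196 CPM in sham + WT, 1887, 1799 and 1676 CPM in sham + Lrg1-/-, 2036 and 1801 CPM in MCAO/R + WT and 2299, 2999 and 2642 CPM in MCAO/R + Lrg1-/- libraries. The knockout libraries were the lowest after sham surgery and the highest or near the highest after MCAO/R, and the difference between the MCAO/R groups was 0.46 (SE 0.16, adjusted p = 0.0485), lost in 14 of 21 alternatives. Without MCAO/R + WT replicate 2, for example, it was 0.34.

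Lamp2 was 702, 659.5 and 722 CPM in sham + WT, 508, 463 and 440.5 CPM in sham + Lrg1-/-, 692 and 769 CPM in MCAO/R + WT and 329, 357 and 489 CPM in MCAO/R + Lrg1-/- libraries. Neither Lrg1-/- group overlapped a WT group. The difference was -0.91 after MCAO/R (SE 0.18, edgeR's quasi-likelihood test, adjusted p = 0.00314) and -0.56 after sham surgery (SE 0.16, adjusted p = 0.0654). The first was lost when cells were thinned to 1000 UMIs (-0.41) and without the 2 libraries that held Xist (-0.64). Lamp1 was 951, 975 and 920.0 CPM in sham + WT, 638, 726 and 664 CPM in sham + Lrg1-/-, 844 and 1093 CPM in MCAO/R + WT and 679, 878 and 975 CPM in MCAO/R + Lrg1-/- libraries. It was lowest in the sham + Lrg1-/- group (-0.49, adjusted p = 0.103), and the MCAO/R groups overlapped (-0.20, adjusted p = 0.478).

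The cystatins of border-associated macrophages moved with surgery. Cstb was 148, 146 and 142 CPM in sham + WT, 126, 133 and 230.1 CPM in sham + Lrg1-/-, 488 and 373 CPM in MCAO/R + WT and 539, 548 and 509 CPM in MCAO/R + Lrg1-/- libraries. Every MCAO/R library was above every sham library, with a rise of 1.57 in WT (SE 0.22, edgeR's quasi-likelihood test, adjusted p = 0.000298) and 1.77 in Lrg1-/- mice (SE 0.21, adjusted p = 0.000368). Cst3 was 6835, 6021 and 6000.4 CPM in sham + WT, 6509, 7050.5 and 7580.0 CPM in sham + Lrg1-/-, 3484 and 2286 CPM in MCAO/R + WT and 6291, 3092 and 4428 CPM in MCAO/R + Lrg1-/- libraries. It fell by 1.12 in WT mice (SE 0.25, adjusted p = 0.00904), a call lost without MCAO/R + WT replicate 2 (-0.82), and in Lrg1-/- mice the change was -0.62 (adjusted p = 0.0837). Replicate 1 of the MCAO/R + Lrg1-/- group was close to the sham level.

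Among the remaining cathepsins, Ctsl was 795, 691 and 696 CPM in sham + WT, 408, 503 and 421 CPM in sham + Lrg1-/-, 2008 and 1365 CPM in MCAO/R + WT and 986, 1566 and 1131 CPM in MCAO/R + Lrg1-/- libraries. It rose by 1.21 in WT (SE 0.21, edgeR's quasi-likelihood test, adjusted p = 0.00190) and by 1.47 in Lrg1-/- mice (SE 0.20, adjusted p = 0.000693). Ctsc, which rose in microglia, was 1509, 1799.6 and 1905 CPM in sham + WT, 1660.1, 1569.8 and 1315 CPM in sham + Lrg1-/-, 1009.6 and 673 CPM in MCAO/R + WT and 1180.0, 1365 and 1076 CPM in MCAO/R + Lrg1-/- libraries. It fell by 1.05 in WT border-associated macrophages (SE 0.20, adjusted p = 0.00402), a call lost without MCAO/R + WT replicate 2 (-0.76), and the change in Lrg1-/- mice was -0.33 (adjusted p = 0.258). The difference between the 2 macrophage types was not tested. Ctsz ran from 570.2 to 763 CPM over the sham libraries and from 882 to 1099 CPM over the MCAO/R libraries, and rose by 0.75 in Lrg1-/- mice (SE 0.15, adjusted p = 0.00690) against 0.50 in WT mice (adjusted p = 0.0700). Ctss ran from 617 to 1206 CPM over all 11 libraries and was called in none of the comparisons.

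Between the sham groups of border-associated macrophages edgeR's quasi-likelihood test called 0 members and 4.54% of all genes. An unadjusted p under 0.05 was reached by 4 members and by 2250 of all 11175 genes. DESeq2 called 2 members, and its own share of all genes is not given here. By edgeR's test the largest differences between these groups were -0.71 for Ctsl (adjusted p = 0.0511) and -0.56 for Lamp2. For the interaction edgeR's test called 0 members and 0.17% of all genes. An unadjusted p under 0.05 was reached by 3 members and by 1429 of the 11175 genes. DESeq2 called 2 members, again without its own share. The largest interaction values by edgeR's test were 1.10 for Ctsd (adjusted p = 0.0966) and 0.78 for Ctsb (adjusted p = 0.144). The dissociation genes ran from 30691 to 41222 CPM in WT and from 8487 to 18185 CPM in Lrg1-/- border-associated macrophages, and haemoglobin from 13.1 to 40.2 and from 10206 to 25914 CPM. Markers of other cells moved too. The 8 microglial markers summed to 226 to 466 CPM in MCAO/R + WT and 955 to 1516 CPM in MCAO/R + Lrg1-/- cells, and 7 choroid plexus markers to 95.3 to 311 and 5886 to 15651 CPM, while the 7 markers of border-associated macrophages overlapped between these groups. The 7 monocyte markers summed to 31.1 to 58.1 CPM and 176 to 242 CPM in the same order. Marker sums of smooth muscle cells, ciliated ependymal cells, red blood cells and B, T and NK cells were also higher in MCAO/R + Lrg1-/- without overlap, and that of pericytes was lower. The part of these genes in the differences was not tested. Of 94 genes of the 6 lysosomal lists tested in these cells, 7 were higher and 19 lower between the MCAO/R groups, where 9.97% of all genes were higher and 10.8% lower.

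Monocytes and monocyte-derived macrophages reached 20 cells in only 3 libraries, MCAO/R + Lrg1-/- replicates 2 (707 cells) and 5 (623 cells) and MCAO/R + WT replicate 1 (22 cells). Ctsb stood at 1797 and 2508 CPM in the Lrg1-/- libraries against 715 CPM in the WT library, and Ctsd at 1881 and 2459 CPM against 756 CPM. edgeR's quasi-likelihood test called 0 of the 10 members and 0.0% of all 12933 genes in this comparison of 2 mice with 1. The median log2 fold change was 0.34 over the 10 members and 0.29 over all genes tested. The single WT library of 22 cells gives no spread of its own.

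Between the MCAO/R groups the members were also compared in 10 other cell types, and every call was in the higher direction in Lrg1-/- mice. In all, 41 of 100 tests were called, in 8 of the 10 types. The calls numbered 7 in neurons and 7 in pericytes, 6 in oligodendrocytes, 5 in vascular smooth muscle cells, 5 in endothelial cells, 4 in choroid plexus epithelial cells, 4 in ciliated ependymal cells and 3 in astrocytes. The share of all genes called higher was 3.68% in neurons, 14.1% in pericytes, 17.0% in oligodendrocytes, 6.05% in vascular smooth muscle cells, 13.2% in endothelial cells, 9.9% in choroid plexus epithelial cells, 3.14% in ciliated ependymal cells and 2.07% in astrocytes. In fibroblasts and neutrophils, where 0.141% and 0.0853% of genes were called higher, edgeR's quasi-likelihood test called 0 members. An unadjusted p under 0.05 was reached by 6 members and by 1195 of all 8527 genes in fibroblasts. In neutrophils it was reached by 5 members and by 880 of all 5859 genes. Ctsd and Ctsz were called in 8 types, Ctsb and Cstb in 7, Cst3 and Ctsc in 4, Ctss in 2, Ctsl in 1, and Lamp1 and Lamp2 in 0.

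The largest called difference among these 10 types was that of Ctsd in neurons, where it was 1254 ± 532 CPM (SD, n = 3) in MCAO/R + Lrg1-/- against 239.5 ± 1.70 CPM (n = 2) in MCAO/R + WT libraries, a log2 difference of 2.38 (SE 0.42, edgeR's quasi-likelihood test, adjusted p = 0.0109). The groups did not overlap. Ctsb differed by 2.25 there (SE 0.30, adjusted p = 0.00310), with 686 ± 178 against 145 ± 34.5 CPM. In oligodendrocytes Ctsd was 995 ± 169.5 against 300.4 ± 34.0 CPM (log2 1.73, SE 0.17, adjusted p = 5.47e-05) and Ctsz 355 ± 68.2 against 103 ± 15.04 CPM (1.79, SE 0.17, adjusted p = 4.66e-05). In pericytes Ctsc was 202 ± 28.2 against 58.6 ± 19.5 CPM (1.77, SE 0.24, adjusted p = 0.000130). In endothelial cells Ctsz was 245 ± 42.8 against 99.7 ± 24.3 CPM (1.30, SE 0.16, adjusted p = 0.000190).

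**Figure D4:**
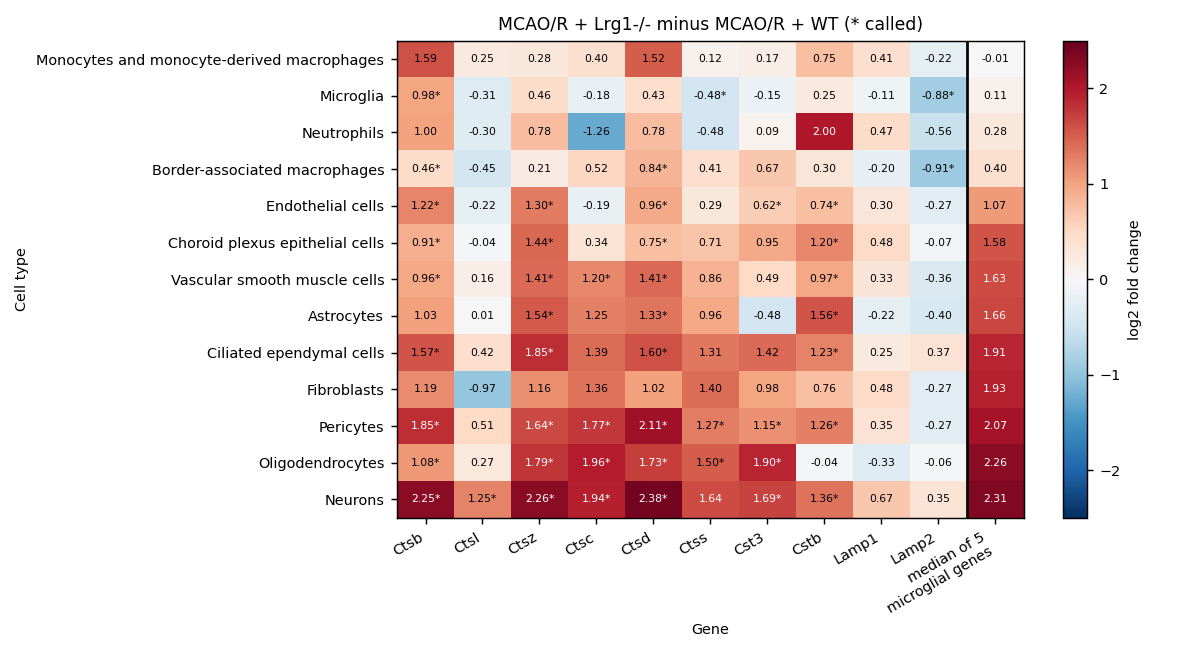
Log2 fold change between MCAO/R + Lrg1-/- and MCAO/R + WT libraries of the 10 genes in each cell type fitted, as a heat map with the log2 value in each cell and an asterisk on each called gene. The column on the right is the median of 5 microglial genes. Calls outside the macrophages are all higher in MCAO/R + Lrg1-/- mice, up to 2.38 for Ctsd in neurons, and Lamp1 and Lamp2 are called in none of the 10 other types.

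Microglial transcripts moved with these differences. The median log2 difference of the 5 genes P2ry12, Tmem119, C1qa, C1qb and C1qc, which these other cell types do not make, was 2.31 in neurons, 2.26 in oligodendrocytes, 2.07 in pericytes, 1.91 in ciliated ependymal cells, 1.66 in astrocytes, 1.63 in vascular smooth muscle cells, 1.58 in choroid plexus epithelial cells and 1.07 in endothelial cells. They were called higher 5 of 5 times in oligodendrocytes and pericytes and 4 of 5 times in neurons and endothelial cells. In microglia the same median was 0.11, and in border-associated macrophages 0.40. Their summed level in neurons ran from 727 to 823 CPM in MCAO/R + WT and from 1916 to 4548 CPM in MCAO/R + Lrg1-/- libraries. The part of microglial RNA in the higher cathepsin levels of the other cell types was not tested. The number of calls, 41 in the main fits, was lower without MCAO/R + WT replicate 2, which leaves 1 library in that group. The share of all genes called in those fits is not given here.

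Across 15 named cell types, taken over all libraries with at least 20 cells of the type, microglia had the highest mean of Cst3, Ctsd, Ctsl, Ctss, Ctsz and Lamp2. Border-associated macrophages had the highest mean of Ctsb and Ctsc, monocytes that of Cstb and oligodendrocytes that of Lamp1. These levels pool groups that differ, and the monocytes came from MCAO/R libraries only, so they are given as a description without a test. In the sham + WT libraries alone, fibroblasts led for Ctsl (1500.6 ± 520.4 CPM, against 953.5 ± 136.3 CPM in microglia, SD, n = 3) and their Cstb (145.9 ± 16.56 CPM) and that of border-associated macrophages (145.3 ± 3.238 CPM) were closer than this spread, and the leading type was the same for the other 8 genes.

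**Figure D5:**
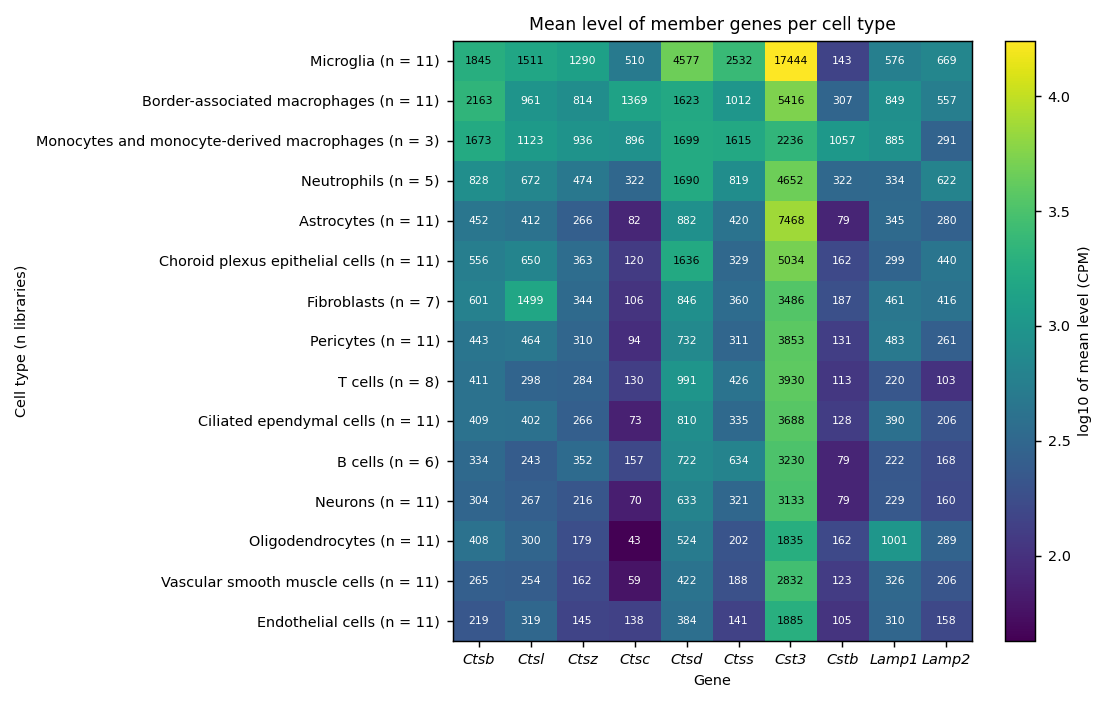
Heat map of the mean level of the 10 genes in each of 15 cell types (CPM on TMM-adjusted totals printed in each cell, colour on a log10 scale, n libraries of all groups pooled). Cst3 stands at 17444 CPM in microglia against 7468 CPM in astrocytes, the next type, and Lamp1 runs from 220.4 CPM in T cells to 1001 CPM in oligodendrocytes.

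The distance between neighbours in this order was larger than the larger SD for only some genes. Cst3 stood at 17444 ± 6261 CPM in microglia (SD, n = 11) and at 7468 ± 2353 CPM in astrocytes (n = 11). Ctsd stood at 4577 ± 1149 CPM in microglia and at 1699 ± 866 CPM in monocytes (n = 3). Ctss stood at 2532 ± 476 CPM in microglia, 1615 ± 113 CPM in monocytes and 1012 ± 155 CPM in border-associated macrophages. These steps exceeded the spread. Ctsc went from 1369 ± 368 CPM in border-associated macrophages to 896.5 ± 207 CPM in monocytes and 510.4 ± 301 CPM in microglia, and Cstb from 1057 ± 288 CPM in monocytes to 322 ± 256 CPM in neutrophils (n = 5), also beyond the larger SD. The leading types were not separated for Ctsb (border-associated macrophages 2163 ± 396 CPM, microglia 1845 ± 1459 CPM), for Ctsl (microglia 1511 ± 889 CPM, fibroblasts 1499 ± 501 CPM, n = 7), for Ctsz (microglia 1290.3 ± 518 CPM, monocytes 936 ± 110.4 CPM) or for Lamp2 (microglia 669 ± 156 CPM, neutrophils 622 ± 175 CPM). Lamp1 stood at 1001 ± 160 CPM in oligodendrocytes, 885 ± 185 CPM in monocytes, 849 ± 152 CPM in border-associated macrophages and 576 ± 144 CPM in microglia, and only the last of these steps exceeded the spread.

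For each member the gene with the most similar pattern over the 15 cell types was found by Pearson correlation of mean log2(CPM + 1), among 5845 genes that reached 100 CPM in some type. The partners were Ctsa for Ctsb (r = 0.96), Frrs1 for Ctsd (0.93), Cd300c2 for Ctss (0.96), Hfe for Ctsl (0.87), Slc7a8 for Ctsz (0.97) and Ms4a6c for Ctsc (0.93). Those of the other members were P2ry12 for Cst3 (0.88), Saa3 for Cstb (0.92), Hmox2 for Lamp1 (0.81) and Mitf for Lamp2 (0.87). The cell types share libraries, depth and free RNA, so that these correlations are a description.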

How the data were processed

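Single-cell count matrices of 11 libraries, 1 mouse each, were used. Each deposited matrix holds unnormalized counts of UMIs for every gene in every barcode, made by the authors with Cell Ranger (7.0.1 per the file headers, 5.0.0 in the methods) on mm10. Cells with more than 500 genes, more than 1000 UMIs and less than 25% mitochondrial UMIs were kept. The 6% of cells with the highest Scrublet scores were removed where its automatic calls fell below 0.5%. This was so in all sham + Lrg1-/- libraries, in MCAO/R + Lrg1-/- replicates 1 and 5 and in sham + WT replicate 1. The rule thus differed mostly by genotype. Cells were clustered with scanpy 1.11.5 (2000 variable genes without the members and sex-linked genes, 15 components, 3 neighbours per library, Leiden resolution 1) and named from marker lists. Unnamed cells and a cluster with haemoglobin markers were left out. Counts were summed per library and type (at least 20 cells) and compared with edgeR 4.0.16 (TMM, filterByExpr, quasi-likelihood test, R 4.3.3), with DESeq2 1.42.0 as an alternative. The test was checked on simulated data. Named genes were all members in microglia and border-associated macrophages, members called between the MCAO/R groups elsewhere, up to 3 genes per lysosomal list and direction with the smallest adjusted p, and the gene most like each member. Some list genes that this rule names are not reported here. The members and lists were chosen with earlier results of these data known. Nothing states that the mice were drawn as independent litters, so p-values measure the spread between these libraries. Promoters are RefSeq GRCm38.p6.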

Additional observations from a re-analysis of the deposited data

Results flagged for a closer look

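The response to MCAO/R differed between genotypes for 3 members in microglia, by the interaction term of edgeR's quasi-likelihood test. The term was 1.28 for Ctsb (adjusted p = 0.0439), 0.85 for Ctsd (adjusted p = 0.0386) and -0.62 for Lamp2 (adjusted p = 0.0380) on the log2 scale. These calls lie close to the threshold and were lost in 10, 13 and 11 of 21 alternatives. Without the 2 libraries that held Xist the values were 0.83, 0.57 and -0.50. All kept their direction in these alternatives. Within cluster 0 the values were 1.39, 0.88 and -0.75 and within cluster 2 they were 0.39, 0.02 and -0.375, with none of the 6 called.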

How the results depend on the processing

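Each member fold change in microglia and border-associated macrophages was recomputed under 21 alternatives, 2100 values in all. Of these, 1945 kept their side of the threshold, 101 lost the call and 54 gained one. No called value among them changed sign, and 57 values that were called in neither fit did. Counts under the alternatives are given below without the share of all genes called under the same alternative. They show only how the number of calls moved. The counts of called members are 3, 2, 6, 9 and 3 in microglia for the MCAO/R genotype, sham genotype, WT surgery, Lrg1-/- surgery and interaction comparisons, 3, 0, 4, 5 and 0 in border-associated macrophages, 0 in monocytes and 41 in the other types, and 28, 30, 38, 59 and 14 genes of the lysosomal lists in microglia. With DESeq2 the sham genotype count was 4 in microglia and 2 in border-associated macrophages, the interaction 2 in border-associated macrophages, monocytes 2 and the lysosomal interaction 26. Without the low-count filter these were 4, 1, 1 and 3 (sham genotype in both types, interaction in border-associated macrophages, monocytes). With plain totals the sham genotype count was 1 in microglia, the MCAO/R genotype count 5 in border-associated macrophages and the lysosomal sham count 11. In cells thinned to 1000 UMIs the Lrg1-/- surgery counts were 3 in border-associated macrophages and 33 lysosomal genes. Without the 2 libraries that held Xist, chosen after seeing the data, microglia gave 1, 4 and 0 (MCAO/R genotype, sham genotype, interaction), border-associated macrophages 0, 2 and 2 (MCAO/R genotype, sham genotype, Lrg1-/- surgery) and the lysosomal lists 12, 30 and 8 (MCAO/R genotype, Lrg1-/- surgery, interaction). Cluster 0 alone gave 0, 3 and 0 (sham genotype, WT surgery, interaction) and cluster 2 alone 4, 5 and 1 (sham genotype, Lrg1-/- surgery, interaction), also chosen after seeing the data.

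Leaving out 1 library at a time gave 1 to 4, 1 to 4, 4 to 6, 8 to 9 and 0 to 5 calls in microglia in the order above, 1 to 5, 0 to 2, 2 to 5, 4 to 6 and 0 to 0 in border-associated macrophages, 0 to 0 in monocytes, 16 to 44 in the other types, and 9 to 36, 11 to 40, 26 to 43, 42 to 59 and 5 to 33 for the lysosomal lists. The labels do not say whether the replicate numbers pair the samples. Over 13 same-number pairs the correlation of deviations ran from -0.456 to 0.0483. Deviations within groups of 2 or 3 libraries constrain one another, so these values cannot decide it. With the replicate block the microglial sham genotype count was 1 and the interaction 0, and the lysosomal counts were 17, 9, 24 and 2 (MCAO/R genotype, sham genotype, WT surgery, interaction). The cause of these changes was not tested. With 2 MCAO/R + WT mice each contrast with that group rests on few libraries, and border-associated macrophages came from as few as 34 cells. A fit without either of these mice leaves 1 library in that group. The fit without the 2 libraries that held Xist leaves 1 library in the MCAO/R + Lrg1-/- group.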
